A study of Homo sapiens with 17 samples.

Results

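The genomic sites described here were called as peaks of SOX2 fused to the C-terminal domain (CTD) of FOXA2. They were missing from both peak lists of SOX2 itself. There were 2816 such sites among the 42150 fusion peaks considered. A site was a peak of the first fusion replicate on chromosomes 1 to 22 or X. It had to overlap, by at least 1 bp, a peak of the combined fusion list, which holds both replicates, and no peak of the first SOX2 replicate or of the combined SOX2 list. Of the 42289 fusion peaks on these chromosomes, 139 lay in the 2 stretches left out, at 121.7 to 125.2 Mb of chromosome 1 and 16.0 to 18.1 Mb of chromosome 13. The sites were chosen by measured values, the presence of peaks in the fusion and SOX2 lists, so their presence with the fusion, absence with SOX2 and peak heights are descriptions.

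Chromatin immunoprecipitation with sequencing (ChIP-seq) was done with a Flag antibody in U2OS, a human osteosarcoma cell line. Stable lines carried a Tet-on transgene, which doxycycline switches on, and were induced at 500 ng/ml for 4 days. The 8 Flag-tagged proteins were full-length FOXA1, FOXA2 and FOXA3, each of these without its CTD, full-length SOX2, and SOX2 with the FOXA2 CTD added. Each had 2 biological replicates, and 1 sample was an input. Expression from a transgene in a line that is not a native setting of these factors limits all groups as a model, and the labels do not say how many clones made up each line. Peak lists carry no expression, so the U2OS label was not checked against marker genes, and no peak list of the input was used. Read depth is unknown for every library.

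SOX2 is a high-mobility-group factor of pluripotent and neural cells that binds short CATTGT-like and CTTTGT-like words. FOXA1, FOXA2 and FOXA3 are forkhead factors of endoderm-derived organs that recognise TGTTTAC-like words. Both families are known as pioneer factors, which can bind their sites in closed chromatin, and the fusion adds the C-terminal part of FOXA2 to the whole of SOX2. Promoters of housekeeping genes are typically rich in GC and CpG and carry GC boxes and ETS, NRF1 and YY1 words.

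The sequences below lie upstream of the gene starts with the strongest gained sites, a place where these sites were more frequent than those shared with SOX2. Each holds the 250 bases before a start, 5′ to 3′ on the gene's strand, from the RefSeq promoter table of GRCh38.p14. Capitals mark exact matches, on either strand, to the searched words for SOX (CATTGT and also CTTTGT), forkhead (TGTTTAC and also TGTTTGC), AP-1 (TGANTCA), CRE (TGACGTCA), ETS (CCGGAAG), the GC box (GGGCGG), the CCAAT box, NRF1 (GCATGCGC), YY1 (AAGATGGC), the E-box (CACGTG) and the TATA box (TATAAA). None of these words contains another. Positions are in bp from the start, with upstream positions negative.
ZNF106: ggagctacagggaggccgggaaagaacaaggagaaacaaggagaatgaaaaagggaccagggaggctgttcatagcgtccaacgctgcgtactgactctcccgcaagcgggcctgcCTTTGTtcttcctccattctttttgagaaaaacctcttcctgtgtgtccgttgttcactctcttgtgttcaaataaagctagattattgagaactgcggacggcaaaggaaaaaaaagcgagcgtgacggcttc
VANGL2: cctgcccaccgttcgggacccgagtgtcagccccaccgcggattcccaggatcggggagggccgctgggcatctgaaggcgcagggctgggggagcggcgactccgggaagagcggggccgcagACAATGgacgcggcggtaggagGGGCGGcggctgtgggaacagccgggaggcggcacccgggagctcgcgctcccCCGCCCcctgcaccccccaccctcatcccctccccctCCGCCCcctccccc
ZNF335: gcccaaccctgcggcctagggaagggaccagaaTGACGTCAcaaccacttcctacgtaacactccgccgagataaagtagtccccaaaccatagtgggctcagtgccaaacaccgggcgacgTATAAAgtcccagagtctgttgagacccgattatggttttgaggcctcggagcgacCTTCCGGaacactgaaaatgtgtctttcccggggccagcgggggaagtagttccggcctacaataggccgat
TSC1: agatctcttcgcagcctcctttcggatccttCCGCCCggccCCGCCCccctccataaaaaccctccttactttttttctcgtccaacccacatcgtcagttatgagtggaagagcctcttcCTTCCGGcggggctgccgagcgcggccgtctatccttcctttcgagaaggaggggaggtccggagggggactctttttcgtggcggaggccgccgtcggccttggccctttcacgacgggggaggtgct
CDK12: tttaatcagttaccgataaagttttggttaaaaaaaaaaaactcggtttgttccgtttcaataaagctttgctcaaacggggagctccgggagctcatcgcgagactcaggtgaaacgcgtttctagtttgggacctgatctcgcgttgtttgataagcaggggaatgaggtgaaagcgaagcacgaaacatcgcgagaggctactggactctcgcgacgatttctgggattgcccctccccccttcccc
RNF216: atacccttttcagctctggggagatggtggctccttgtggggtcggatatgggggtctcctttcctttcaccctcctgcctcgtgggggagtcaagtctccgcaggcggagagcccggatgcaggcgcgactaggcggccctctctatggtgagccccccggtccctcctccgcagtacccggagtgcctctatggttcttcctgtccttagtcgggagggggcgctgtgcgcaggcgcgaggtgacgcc

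The ZNF106 window, chr15:42491142-42491391 on the minus strand, lies upstream of a zinc finger gene whose neighbour SNAP23, a membrane fusion protein gene, also covers the site. Its fusion summit was at −105, and the window holds 1 SOX word at −134 to −129. The VANGL2 window, chr1:160400314-160400563 on the plus strand, belongs to a planar cell polarity gene. Its summit was at −131, beside a SOX word at −126 to −121, and it holds 3 GC boxes. The ZNF335 window, chr20:45972204-45972453 on the minus strand, holds a CRE, an ETS word and a TATA word, with the summit at −27. The window of TSC1, a tumour suppressor of the mTOR pathway, chr9:132944617-132944866 on the minus strand, holds 2 GC boxes and an ETS word, with the summit at −98. No searched word occurs in the window of CDK12, a transcription elongation kinase gene, at chr17:39461236-39461485 on the plus strand (summit at −182). None occurs in that of the ubiquitin ligase gene RNF216 either, at chr7:5781664-5781913 on the minus strand (summit at −142). Thus 2 of the 6 printed windows hold a SOX word and 0 hold a forkhead word.

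Most gained sites were low peaks. In the first replicate, the authors' −log10 p had a median of 3.22 and ranged from 1.72 to 21.4, fold enrichment over local background had a median of 3.22, and width a median of 295 bp. The 1511 fusion sites that passed the same rule but overlapped a SOX2 peak had medians of 5.08, 4.09 and 448 bp. A q-value of 0.05 or less was reached by 428 gained sites (15.2%, 95% Wilson interval 13.9 to 16.6) and by 863 of the shared sites (57.1%, 54.6 to 59.6). All intervals given for sites cover counting error over sites only, not the spread between libraries.

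Reproducibility across the replicates was low at most of these sites. The irreproducible discovery rate (IDR) of the combined peak is low where a peak ranks consistently high in both replicates. A high IDR can mean that the ranks differ or that the peak is weak in both. The IDR had a median of 0.771 at gained and 0.652 at shared sites. It was 0.1 or less at 14 gained and 87 shared sites, and 0.5 or less at 320 and 473. The combined fusion list runs to an IDR of 0.920, and the combined SOX2 list stops at 0.100. Of the lists of single replicates, that of the fusion holds 42705 peaks and that of SOX2 holds 13977, both down to a −log10 p of 1.70. Whether a site missing from the SOX2 lists lacks SOX2, or lies under the limit of those lists, cannot be told apart here.

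**Figure D1:**
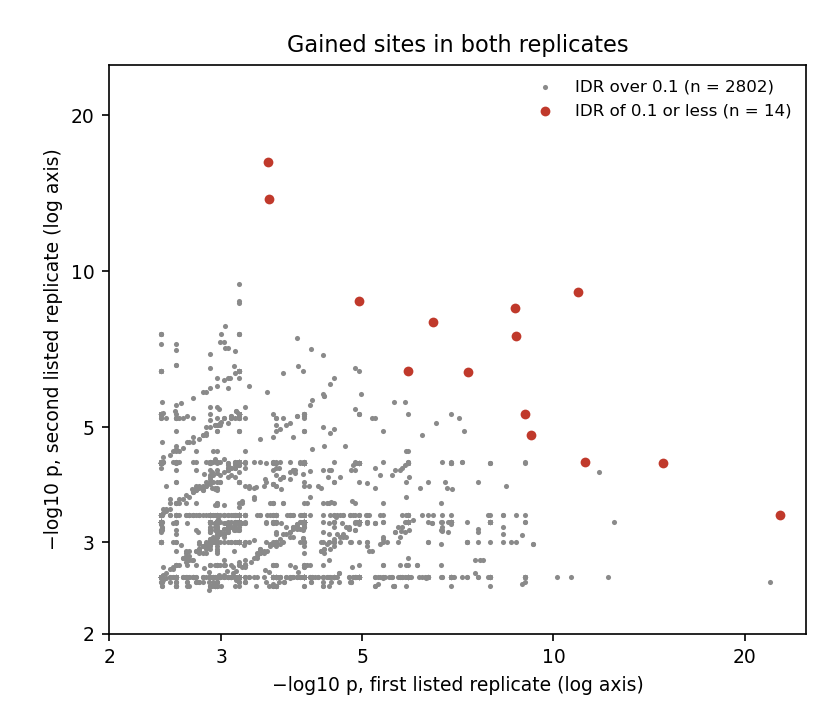
Each point is 1 of the 2816 gained sites, placed by the authors' −log10 p of its combined fusion peak in the first (x axis) and second (y axis) listed replicate, both on log axes. The 14 sites with an IDR of 0.1 or less (large points) lie at the outer edge, and most others have a −log10 p under 5 in the second listed replicate.

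The first listed p belonged to the first replicate at most sites, with a median difference in −log10 p of 0.0231 from the single-replicate list, against 0.855 for the second listed. At 291 sites (10.3%) the first listed value differed by over 0.5, and the cause was not tested. The 2816 sites fell in 2763 combined peaks, and at 50 of them (1.78%) the combined peak reached a SOX2 peak that the site's own peak did not touch.

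The strongest gained site, between genes and nearest to RWDD3 on chromosome 1 (95531403 to 95531929), had a fold enrichment of 11.2 and a −log10 p of 21.4, the highest by a wide margin. Its combined peak had 22.7 in the first and 3.39 in the second listed replicate, so its height rested on 1 library. The site nearest to PRMT6, an arginine methyltransferase gene over 1 Mb away, had 14.9 and 4.27 and overlapped FOXA1 peaks with and without CTD and full-length FOXA2 peaks. Sites nearest to ZNF337 (12.4 and 3.29) and KHDRBS2, an RNA-binding protein gene (12.2 and 2.57), and within the phospholipase gene PLCB4 (11.8 and 4.09), overlapped no FOXA peak.

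One strong site was of like height in both replicates. It lay in ATP11A, a phospholipid flippase gene (chromosome 13, 112872858 to 112873394), with −log10 p values of 10.9 and 9.14 and the lowest IDR of all gained sites, 0.00654. It overlapped no FOXA peak, and the nearest SOX2 peak was 313998 bp away. The sites in CCN3, a matricellular growth regulator gene (10.6 and 2.57), and in SMARCA4, the BRG1 ATPase gene of SWI/SNF (10.1 and 2.57), were again tall in the first listed replicate. In the second they were near the list's lower limit. The site in GRIN2B, an NMDA receptor subunit gene, was also far higher in the first (9.29) than in the second (2.98).

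The 14 sites with an IDR of 0.1 or less were singled out after their values were seen. Besides those near RWDD3 and PRMT6, in ATP11A and at ZNF106, they lay at the start of INTS15, an Integrator subunit gene (7.35 and 6.39), at a start of NREP, a neuronal regeneration-related gene (5.90 and 6.42), in the laminin gene LAMA4 (9.02 and 5.31), in ZNF407 (4.95 and 8.77), and nearest to USP46 (8.74 and 7.50), DCUN1D4 (6.46 and 7.98), CHIC2 (9.21 and 4.82), OR4C46 (3.56 and 13.8) and, at 2 places, CWH43 (8.71 and 8.48, then 3.56 and 16.2). Of these 14 sites, 3 had a start within 1 kb (4.42% of all fusion peaks did, without chromosome 8) and 9 overlapped a FOXA peak (19.1% of all fusion peaks). The sites named for DCUN1D4 and OR4C46 lay 401328 and 574966 bp from these genes, and those for CWH43 684757 and 910009 bp. They lay in the longest gene-free stretches of chromosomes 4 and 11, and each overlapped a FOXA peak. The stretches left out on chromosomes 1 and 13 also lie in the longest gene-free stretches of those chromosomes. The rule left out no such stretch on chromosomes 4 and 11, and their repeat content was not examined. Full-length FOXA2 overlap was high in such stretches in every class (48.7% of gained and 73.7% of shared sites, 24.4% of fusion peaks with neither a combined peak nor SOX2). The second listed replicate was far higher than the first at the site near OR4C46 and at the second site near CWH43. Paired values here are those of the combined peaks. Near USP46 the site's own first-replicate peak was weaker, with a −log10 p of 3.22 and a −log10 q of 0.0967.

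Gained sites lay at gene starts more often than sites shared with SOX2. Their summit was within 1 kb of the start of a protein-coding gene at 387 of 2679 sites (14.4%, 13.2 to 15.8), against 83 of 1416 shared sites (5.86%, 4.75 to 7.21) and 1164 of 27468 fusion peaks with neither a combined peak nor SOX2 (4.24%). Over all fusion peaks the share was 4.42%. The difference between gained and shared sites was 8.58 percentage points (95% Newcombe interval 6.73 to 10.4). Starts on chromosome 8 were not used here, so its sites were left out of these shares.

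**Figure D2:**
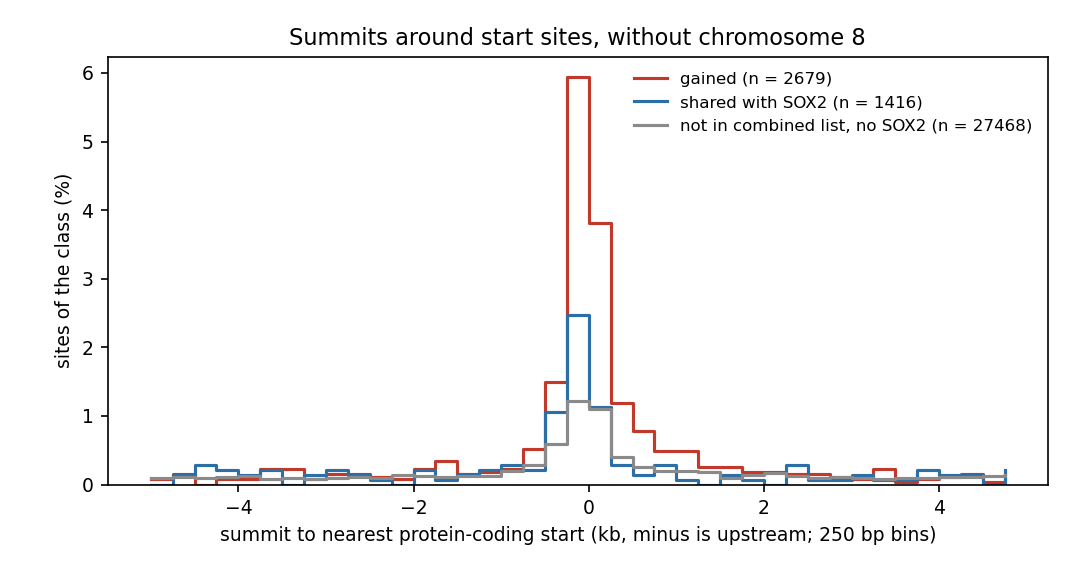
Share of sites (y axis, %) by the distance of their summit to the nearest protein-coding start (x axis, kb, minus is upstream), in 250 bp bins, for gained sites, sites shared with SOX2, and fusion peaks with neither a combined peak nor SOX2. All classes peak at the start, and the gained sites do so most, with 5.49% of them within 100 bp against 2.05% of the shared sites.

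Within 100 bp of a start lay 147 gained sites (5.49%) and 29 shared sites (2.05%), a difference of 3.44 points (2.25 to 4.55), with 1.29% of all fusion peaks. From 1 kb to 10 kb the shares were 9.78% and 7.34%, with 7.67% of all fusion peaks and a difference of 2.44 points (0.612 to 4.15). The median summit near a start was at −28, and 219 of the 387 summits lay upstream. Far from starts the order turned: 38.7% of gained and 48.6% of shared sites lay over 100 kb from one, a difference of −9.84 points (−13.0 to −6.65), with 51% of all fusion peaks. The median distance was 59411 bp for gained and 92278.5 bp for shared sites. Counted at either end of a gene and on all chromosomes, 451 gained sites (16.02%) had an end within 1 kb against 98 shared sites (6.49%), with 5.26% of all fusion peaks. That difference was 9.53 points (7.65 to 11.3). Within 2.5 kb of an end lay 20.2% of gained and 8.14% of shared sites, with 7.87% of all fusion peaks, and within 1 kb of an end of any annotated gene 22.3% and 11.7%, with 9.07%. The protein-coding difference within 1 kb was 5.06 points (1.97 to 9.26) when both classes were held to a −log10 q of at least 2. It was 3.37 points (2.95 to 3.77) from first-replicate lists alone. From combined lists alone, which leave 119 shared sites, it was 0.141 points (−7.06 to 5.03), so the difference was not detectable there.

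Start sites were commonest among the weakest gained peaks. The share was 16.8% at a −log10 p under 3, 15.6% from 3 to 4, 10.5% from 4 to 6 and 6.0% at 6 or more. Shared sites in the same bands had 10.6%, 11.4%, 5.56% and 1.74%. The difference at matched strength was 6.26 points (−0.273 to 11.04), 4.27 (−0.399 to 8.20), 4.96 (1.61 to 8.27) and 4.26 (1.05 to 9.33), so it was smaller than over all sites, and its interval reached 0 in the lower bands. A start-proximal gained site was also less often past a q-value of 0.05 (9.04%) than one farther away (16.1%).

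Among the strongest start-proximal sites, the one at ZNF106 and SNAP23 had a −log10 p of 11.2 in the first and 4.28 in the second listed replicate. Those at VANGL2 (9.01 and 2.52), TSC1 (7.60 and 2.57) and CDK12 (7.17 and 2.57) were high in the first listed replicate and near the list's lower limit in the second. Second values were higher at ZNF335 (7.60 and 3.93), RNF216 (6.93 and 3.803) and the heparanase-family gene HPSE2 (6.75 and 3.93). The site at CLTC, the clathrin heavy chain gene, had 5.93 and 3.16, and that in TOR1AIP1 had 6.90 and 2.47. Of the 10 strongest, the INTS15 site had the most even pair of values.

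In all, 418 of 15812 protein-coding genes with a listed start had a gained site within 1 kb of one (2.64%). By symbol, these included 13 of 437 ZNF zinc finger genes (2.97%), 3 of 303 SLC solute carrier genes (0.990%), 4 of 33 kinesin genes (12.1%, KIF23, KIF2C, KIF3B and KIF3C), 4 of 48 DEAD and DEAH box helicase genes (8.33%, DDX3X, DDX42, DDX50 and DHX29), 3 of 66 cytosolic ribosomal protein genes (4.55%, RPS12, RPS24 and RPS26), 2 of 18 cyclin-dependent kinase genes (11.1%, CDK6 and CDK12) and 2 of 21 HOX genes (9.52%, HOXA9 and HOXD8). No olfactory receptor gene (0 of 312), keratin gene (0 of 34) or proteasome subunit gene (0 of 41) was among them. The families are small, and these counts are descriptions. Other genes with a gained site at a start included CTNNB1 (β-catenin), PIK3CA (a PI3-kinase catalytic subunit), ARID1A (a SWI/SNF subunit), DICER1 and DGCR8 (microRNA processing), TET1 (methylcytosine oxidation) and GABPB1 (an ETS factor partner), named here after the list was seen.

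Genes with a start-proximal gained site often had an opposite-strand neighbour. Of the 418 genes, 167 (40.0%, 35.4 to 44.7) had a start of another gene on the opposite strand within 1 kb, against 26.0% of all 15812 genes, 26.2% of the 84 genes with a shared site (17.98 to 36.5) and 34.5% of the 1203 with a fusion peak outside the combined list and without SOX2. The separate intervals of the genes with gained and shared sites overlapped, which does not show that the shares were alike. No interval of that difference was computed, and whether the site lay between both starts was not counted. Outside protein-coding genes, 16 of 443 tRNA genes (3.61%) and 530 of 18177 long noncoding RNA genes (2.92%) had a gained site inside or within 1 kb. So did 1318 of 19974 protein-coding genes (6.60%). The space searched grows with gene length, so these shares cannot be set against each other. A shared site was found in the same way at 2 tRNA genes (0.451%), 247 long noncoding RNA genes (1.36%) and 550 protein-coding genes (2.75%). Of 1558 microRNA hairpins 4 were overlapped, MIR135B, MIR4757, MIR5100 and MIR6125.

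The 223 promoter windows (250 bases before to 50 after a start) that held a gained summit had a median GC content of 65.3% and a CpG ratio, observed over expected, of 0.879. Over all 15812 windows the medians were 62.7% and 0.763, and in the 43 windows with a shared summit 63.3% and 0.885. Windows with a fusion summit outside the combined list and without SOX2 had medians of 64.3% and 0.863, close to those of the gained windows. A SOX word stood in 52 of the 223 windows (23.3%, 18.2 to 29.3), against 19.3% of all windows, 18 of 43 windows with a shared summit (41.9%, 28.4 to 56.7) and 31.0% of the 478 windows with a fusion summit outside the combined list and without SOX2. The separate intervals of gained and shared windows overlapped for both SOX words counted as one, which does not show that the shares were alike. No interval of that difference was computed. CTTTGT alone stood in 12.6% (8.83 to 17.5) of gained and 39.5% (26.4 to 54.4) of shared windows, whose intervals did not overlap. It stood in 12.8% of all windows and in 18.6% of the 478 windows. CATTGT stood in 11.7% (8.08 to 16.5) of gained and 11.6% (5.07 to 24.5) of shared windows, and in 14.9% of the 478.

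A forkhead word stood in 7 of the 223 windows (3.14%, 1.53 to 6.34) against 5.69% of all. ETS words stood in 24.2% of gained windows against 14.2% of all, GC boxes in 69.5% against 58.5%, and CRE words in 5.38% against 2.59%. In the 478 windows with a fusion summit outside the combined list and without SOX2 these shares were 21.1%, 66.7% and 3.35%. The ETS and GC box shares there were close to those of gained windows. The 43 windows with a shared summit had 11.6%, 58.1% and 2.33%. CCAAT stood in 25.6% of gained windows against 36.3% of all, and TATA words in 4.04% against 9.64%. The 478 windows had 37.03% and 7.95%, and 5.86% for a forkhead word. Words for AP-1 (6.28% against 5.76%), NRF1 (4.93% against 4.26%) and YY1 (3.59% against 3.91%) were about as frequent as in all promoters, and E-boxes stood in 6.28% against 8.87%. Exact words are descriptions of these windows, not binding sites.

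Gained sites overlapped FOXA peaks less often than sites shared with SOX2, though for full-length FOXA1 the interval of the difference included 0. Full-length FOXA2 peaks overlapped 409 gained sites (14.5%, 13.3 to 15.9) and 340 shared sites (22.5%, 20.5 to 24.7), with a background of 10.2% of all fusion peaks. FOXA2 without its CTD overlapped 408 (14.5%) and 377 (24.95%), with a background of 11.5%. The differences were −7.98 points (−10.5 to −5.54) and −10.5 points (−13.0 to −7.95). At matched strength they stayed below 0 in each of 4 bands of −log10 p, at −7.30 to −11.6 points for full-length FOXA2 and −8.34 to −12.7 points for FOXA2 without CTD. Counting only FOXA peaks that hold the fusion summit, a setting chosen after seeing the data, gave −8.35 and −10.3 points. From combined lists alone the differences were −46.6 and −40.4 points.

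Part of this difference lay in stretches without genes. Of the shared sites, 9.07% lay in the longest gene-free stretch of each chromosome, and 73.7% of those overlapped full-length FOXA2. Of the gained sites 2.70% lay there, with 48.7% overlapping. Without these stretches the difference was −3.82 points (−6.25 to −1.49) for full-length FOXA2 and −7.57 (−10.1 to −5.08) for FOXA2 without CTD. It was −4.27 points (−28.1 to 22.3) for full-length FOXA2 and 0.328 points (−23.6 to 26.8) for FOXA2 without CTD over the 14 gained and 87 shared sites with an IDR down to the limit of the SOX2 list.

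**Figure D3:**
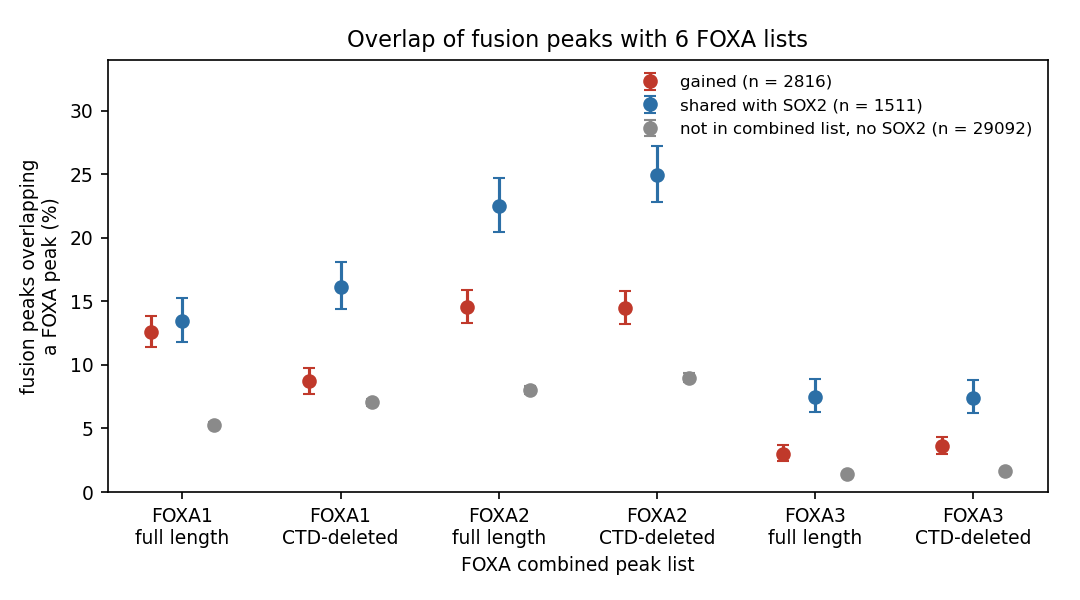
Share of fusion peaks (y axis, %) that overlap a peak of each of the 6 combined FOXA lists (x axis), with 95% Wilson intervals. Gained sites lie below sites shared with SOX2 for each list, though the intervals overlap for full-length FOXA1, and above the fusion peaks with neither a combined peak nor SOX2.

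Full-length FOXA1 overlapped 355 gained sites (12.6%, 11.4 to 13.9) and 203 shared sites (13.4%), with a background of 6.55% and a difference of −0.828 points (−2.99 to 1.24). Split by place, full-length FOXA1 stood at 27.4% of gained and 38.6% (28.8 to 49.3) of shared sites near starts, and at 10.1% and 11.6% (9.95 to 13.4) of those away from them. In the 4 bands of −log10 p, from weak to strong, it stood at 13.6%, 13.1%, 11.1% and 8.92% of gained and 15.5%, 18.03%, 13.8% and 10.04% of shared sites. Gained sites were lower in each of these splits. The separate intervals overlapped, which does not show that the shares were alike, and no interval of the difference was computed there. Among peaks under 300 bp wide they were higher, at 12.4% against 11.4%. FOXA1 without its CTD overlapped 245 gained (8.70%) and 244 shared sites (16.1%), with a background of 8.68% and a difference of −7.45 points (−9.62 to −5.37). FOXA1 full length without FOXA1 lacking the CTD stood at 235 gained sites (8.35%) and 97 shared sites (6.42%), with a background of 3.11% and a difference of 1.93 points (0.266 to 3.49). Both forms of FOXA1 stood at 120 gained sites (4.26%, background 3.45%), and either form at 480 (17.05%, background 11.8%). FOXA1 lacking the CTD alone stood at 4.44% and 9.13%, with a background of 5.23% and a difference of −4.69 points (−6.40 to −3.11).

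For FOXA2, both forms stood at 218 gained sites (7.74%, background 6.19%), the full-length form alone at 191 (6.78%, background 4.03%), the form without CTD alone at 190 (6.75%, background 5.3%), and either at 599 (21.3%, background 15.5%). Gained and shared sites differed by 0.231 points (−1.39 to 1.74) in full-length FOXA2 alone and by −8.21 points (−10.4 to −6.16) in both forms. 

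FOXA3 full length overlapped 85 gained sites (3.02%) and 113 shared sites (7.48%), with a background of 2.08%. FOXA3 without CTD overlapped 101 (3.59%) and 112 (7.41%), with a background of 2.34%. The FOXA3 lists are not independent, since 5012 peaks are alike in both in position and values. Any FOXA list reached 771 gained sites (27.4%, 25.8 to 29.1), 549 shared sites (36.3%) and 19.1% of all fusion peaks, and 2045 gained sites overlapped none. The median −log10 p was 3.22 with 0 lists and with each number from 1 to 6.

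In all 4 FOXA1 and FOXA2 lists were 72 gained sites (2.56%, background 2.09%). They were led by sites in PRR14L on chromosome 22 (8.33 and 3.21 in the first and second listed replicate) and at the CDK12 start. Next came a site in a gene-free stretch of chromosome 11, 2288666 bp from OR4C12 (6.02 and 3.32). Then came sites 400794 bp from TBL1XR1, a corepressor subunit gene (5.90 and 4.27), and at −432 from the start of COPS4, a COP9 signalosome subunit gene (5.90 and 4.27). Only 25 gained sites (0.888%, background 0.693%) were in all 6 FOXA lists.

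FOXA overlap of gained sites depended on where they lay. Full-length FOXA1 overlapped 106 of the 387 start-proximal sites (27.4%, 23.2 to 32.0) and 232 of the 2292 others (10.1%, 8.95 to 11.4). FOXA1 without CTD overlapped 27 (6.98%, 4.84 to 9.96) and 203 (8.86%, 7.76 to 10.1). Near starts, 88 sites had the full-length FOXA1 peak alone, 9 the one without CTD alone and 18 both. Away from starts these numbers were 136, 107 and 96.

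For FOXA2 the shares near starts were 26.6% (22.5 to 31.2) full length and 18.3% (14.8 to 22.5) without CTD, and away from starts 12.6% (11.3 to 13.99) and 13.4% (12.1 to 14.9). Full-length FOXA2 alone stood at 64 start-proximal sites and FOXA2 without CTD alone at 32, against 122 and 142 away from starts. The same order held at fusion peaks with neither a combined peak nor SOX2, where full-length FOXA1 overlapped 17.6% and FOXA1 without CTD 4.90% of the 1164 start-proximal peaks. It is therefore not particular to gained sites. The FOXA lists differ in their limits, with a highest IDR of 0.200 for FOXA1 full length, 0.0501 for FOXA1 without CTD, 0.351 for FOXA2 full length and 0.250 for FOXA2 without CTD, and the part of these limits in the difference between forms was not tested.

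**Figure D4:**
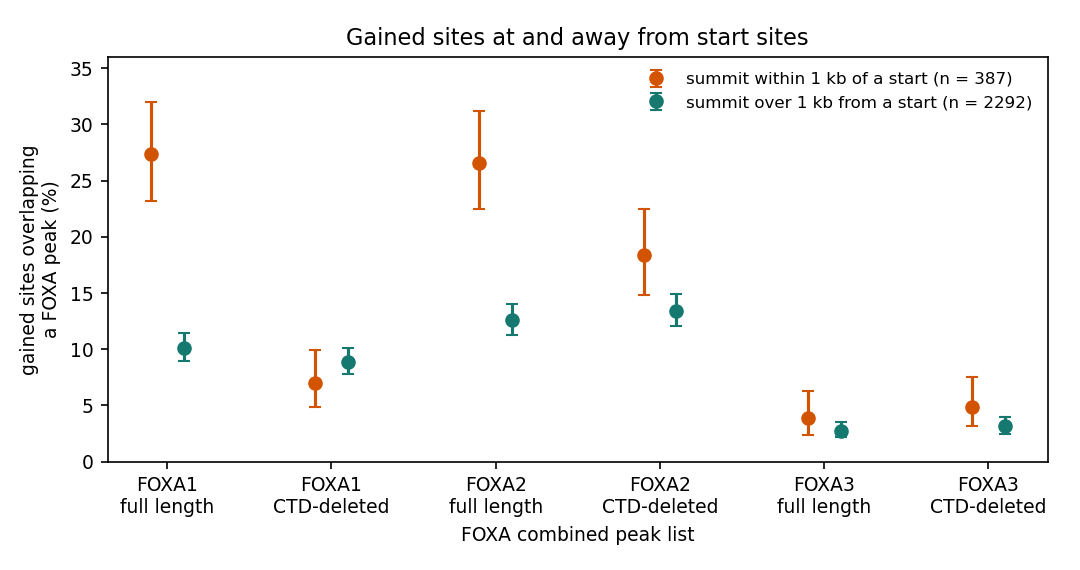
Share of gained sites (y axis, %) that overlap each combined FOXA list (x axis), split by whether the summit lay within 1 kb of a protein-coding start, with 95% Wilson intervals and without chromosome 8. Full-length FOXA1 and FOXA2 stand at 27.4% and 26.6% near starts, while FOXA1 without CTD stands at 6.98% near and 8.86% away from them.

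Inside protein-coding genes lay 1257 gained sites (44.6%, 42.8 to 46.5) and 601 shared sites (39.8%, 37.3 to 42.3), with 41.2% of all fusion peaks. The difference was 4.86 points (1.77 to 7.92). Inside any annotated gene lay 58.3% and 53.2%, with 55.3% of all fusion peaks. The protein-coding difference was 2.14 points (−1.09 to 5.34) without the gene-free stretches and 1.48 points (−5.66 to 8.86) at a −log10 q of at least 2. It was 0.380 points (−0.718 to 1.47) from first-replicate lists alone, 23.3 points (−0.184 to 48.8) down to the IDR limit of the combined SOX2 list, with 14 gained sites, and 24.4 points (16.3 to 30.6) from combined lists alone.

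The genes with the most gained sites were long. SDK1, a synaptic adhesion gene of 968 kb on chromosome 7, held 11 of its 48 fusion peaks as gained sites. TTC28 on chromosome 22 held 9 of 46, and 7 each lay in the kinase gene PRKG1 (of 54), the protocadherin gene PCDH15 (of 64), the synaptic scaffold gene DLGAP1 (of 66) and KIAA1671 (of 19). KIAA1671, at 245 kb the shortest of these, lies in the 1 Mb stretch with the most gained sites, 25000001 to 26000000 of chromosome 22, which held 16 of 55 fusion peaks. A further 13 sites lay at 52000001 to 53000000 of chromosome 11, which holds no protein-coding gene. In the chromosome 11 stretch 11 of 13 sites overlapped a FOXA peak, 10 of them full-length FOXA2, against 4 of 16 in the chromosome 22 stretch. Over all fusion peaks these shares were 19.1% for any FOXA list and 10.2% for full-length FOXA2, and the longest gene-free stretches, one of which holds the chromosome 11 sites, had high full-length FOXA2 overlap in every class (48.7% of gained, 73.7% of shared and 24.4% of fusion peaks with neither a combined peak nor SOX2).

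Gained sites made up 6.68% of the fusion peaks considered, and this share differed between chromosomes. It was 13.2% on chromosome 22 (121 of 914, 11.2 to 15.6), 6.70 points above the other chromosomes (4.64 to 9.07). It was 1.78% on chromosome X (12 of 674, 1.02 to 3.09), 4.98 points below the others (difference −4.98, −5.78 to −3.65). These chromosomes, the highest and the lowest, were singled out after the shares were seen, which their intervals do not take into account. On chromosome X, 1 of 674 fusion peaks was a site shared with SOX2, and on chromosome 22 this held for 74 of 914. Over all chromosomes it held for 1511 of 42150.

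**Figure D5:**
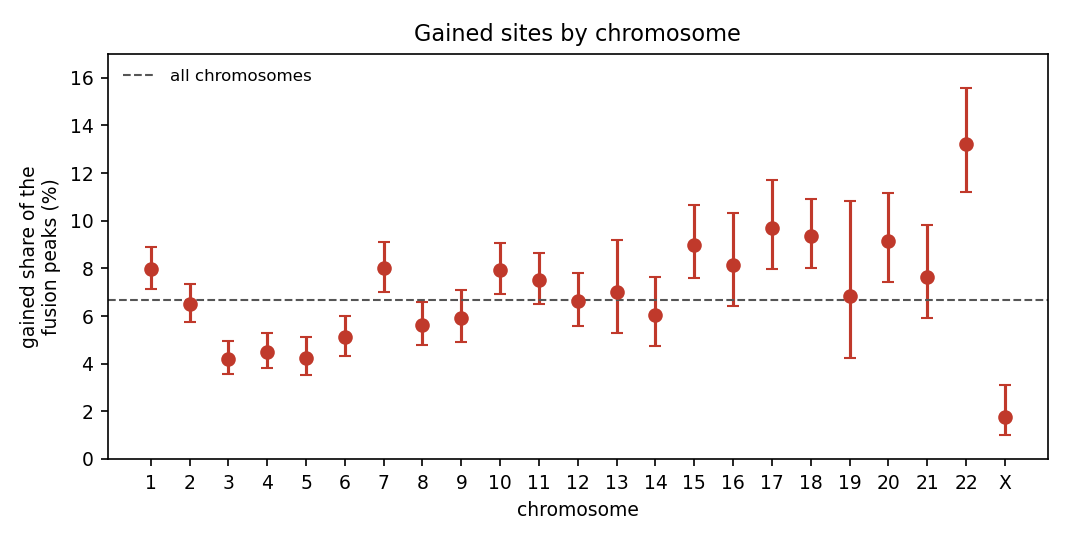
Gained sites as a share of the fusion peaks considered (y axis, %) on each chromosome (x axis), with 95% Wilson intervals; the dashed line is the share over all chromosomes, 6.68%. Chromosome 22 stands highest at 13.2% and chromosome X lowest at 1.78%.

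Distances to SOX2 peaks are descriptions, since the rule leaves out sites that overlap one. The same shares were not counted for other fusion peaks. The nearest SOX2 peak lay within 1 kb of 113 gained sites (4.01%), within 10 kb of 541 (19.2%) and at a median of 44400.5 bp. The gained sites nearest to a SOX2 peak lay at the start of COMMD1 (20 bp away, −log10 p 2.96) and in the mechanosensitive channel gene PIEZO2 (30 bp away, 2.43). Just on the other side of the rule, a site nearest to SOX9 overlapped a SOX2 peak by 4 bp (2.45), and one near the start of CRKL, an adaptor protein gene, by 14 bp (3.53).

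Genes of known programmes were not prominent. Of 9 gene lists, 5 had no gene with a gained site within 1 kb of an end and the other lists had 1 each, HSPH1, TP53I3, CDK6 and RPS12, against 2.59% of all protein-coding genes. Inside or within 10 kb the background was 8.53% (1704 of 19974), and each list had 1 or 2 of its 16 to 21 genes. Among SOX2 neural and pluripotency genes these were NOTCH1 (−log10 p 2.43) and SOX1 (2.43), both under most gained sites in strength. Among SOX family genes SOX5, a chondrocyte and neural factor, held 3 gained sites, the strongest at 5.94. Of the endoderm and gut genes, HNF4A, a hepatocyte and gut nuclear receptor, held 1 site (2.43).

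Osteoblast and mesenchymal genes had sites at SPARC, the osteonectin gene (3.69 and 3.22 at 2 sites), and SP7, the osterix gene (4.07 and 2.73). The AP-1 and YAP-TEAD list had 2 neighbouring sites in YAP1, a Hippo pathway coactivator (4.98 and 3.22), each in 4 FOXA lists, and 1 in TEAD4 (2.43). EGR2, an immediate early gene, had a site at 3.22. The heat shock gene HSPH1 had one at 3.22, 30 bp outside the gene and within 1 kb of its start. The p53 target TP53I3 had 2 sites, one of which was in all 6 FOXA lists (3.78). RRM2, a ribonucleotide reductase gene (3.65), and CDK6, a G1 kinase gene (3.22), stood for the cell cycle list and RPS12 (2.34) for the ribosomal list. No gained site overlapped the FOXA1, FOXA2, FOXA3 or SOX2 gene.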

How the data were processed

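ChIP-seq peak lists of U2OS cells were used, 10 of 14 deposited; the other 4 repeat combined lists. Per the submitters' processing notes, the build was hg38, and Trim Galore, Bowtie2 2.4.4, SAMtools 0.1.18 and MACS2 are named without roles. The control and the limits of the lists are not given in the sources used here. Used from the deposited lists were the authors' fold enrichment, a ratio to nearby background, their −log10 of p and q, and the score of the combined lists, from which the IDR was computed. The treatment label gives 500 ng/ml doxycycline, the extraction protocol 500 ng/ul.

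Overlaps (1 bp), distances, exact words and shares were computed in Python 3.11.15 with numpy 2.4.6 and pandas 2.3.3 and tested on simulated intervals. Wilson and Newcombe intervals are at 95%. No test over replicates was made, since the site classes rest on combined lists, 1 per protein, and single-replicate lists were used for the first replicate only; no p-value over peaks was computed. Genes and promoters are from RefSeq tables of GRCh38.p14. The planned share near gene starts is given at either gene end on all chromosomes, and at starts without chromosome 8. Alternatives covered list limits, the lists used, overlaps, distances, genes and left-out stretches.

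Members, lists and comparisons were chosen with earlier results of these data known. Named by rule were the 10 strongest sites by first-replicate −log10 p, the 10 strongest near a start, the 5 strongest in all 4 FOXA1 and FOXA2 lists and in none, sites at listed genes (the 3 strongest per list), the 2 on either side of the SOX2 rule, the 5 genes and 3 megabases with most sites (the fifth place was tied), and up to 6 promoters. One of these megabases is not reported here.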

Additional observations from a re-analysis of the deposited data

Results flagged for a closer look

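Outside the chromosomes and stretches considered, 16 of 416 fusion peaks on contigs and chromosome Y also overlapped a combined fusion peak and no SOX2 peak, and 19 passed with a SOX2 peak. In the stretches left out on chromosomes 1 and 13, 12 of 139 fusion peaks did so, against 90 with a SOX2 peak. Both are listed because they hold signal in data that the comparisons did not use; no control list was compared.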

How the results depend on the processing

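Of 49 values of 5 results under other settings, 28 stayed within the interval or within 1.5 times the count, 20 moved and 1 reversed. The number of gained sites was 14 at the IDR limit of the combined SOX2 list, 231 at a −log10 q of at least 2, 31928 from first-replicate lists alone (without replicate 2), 5994 from combined lists alone, 1524 with 50% reciprocal overlap and 752 at a −log10 p of at least 4, a setting chosen after seeing the data. The full-length FOXA2 difference was −4.27 points at the SOX2 IDR limit, −46.6 with combined lists alone and −3.82 without gene-free stretches. That of FOXA2 without CTD was 0.328 at the IDR limit, where its sign reversed, −40.4 with combined lists alone and −7.57 without gene-free stretches. The gene-end difference was 5.06 points at the q limit, 3.37 from first-replicate lists, 0.141 (−7.06 to 5.03) from combined lists, 12.1 within 2.5 kb and 5.95 at the p limit. The difference inside genes was 23.3 points at the IDR limit, 1.48 at the q limit, 0.380 from first-replicate lists and 24.4 from combined lists. The IDR limit leaves 14 gained sites, and combined lists alone leave 119 shared ones; other causes were not tested. No paired analysis was possible because the site classes rest on combined lists, 1 per protein, with a single-replicate list of the first replicate only. Leaving out the first replicate was not run, since a list of the second alone was not used. Read depth, which limits what either SOX2 list could hold, is unknown.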
